A study of Mus musculus with 9 samples.

Results

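The miR-183, miR-96 and miR-182 cluster and miR-203 were followed in BAT, SAT and VAT of HFD fed mice. Every miRNA of the deposited small RNA-Seq table named miR-183, miR-96, miR-182 or miR-203 with the suffix of an arm (-5p or -3p) was taken, which gave 8 of the 1251 miRNAs listed. Of these 8, 3 could be tested (miR-183-5p, miR-182-5p and miR-203-3p), 4 were at the lowest value of the table in all 9 libraries (miR-183-3p, miR-96-5p, miR-96-3p and miR-182-3p), and miR-203-5p was above it in 1 library. The libraries came from C57BL/6J male mice, 5 to 6 weeks old at the start, which were kept for 11 weeks on an HFD that drew 45% of its energy from fat, 20% from protein and 35% from carbohydrate, and were fasted for 4 hours before they were killed. There were 3 libraries of interscapular fat (BAT, numbered 12, 15 and 20), 3 of inguinal fat (SAT, numbered 14, 19 and 20) and 3 of epididymal fat (VAT, numbered 14, 17 and 20). All 9 libraries were from HFD mice, so that these data hold no comparison of diets, and whether a shared number marks a shared mouse is not stated. The table holds miRNAs but no mRNA markers of the depots, against which the tissue labels could have been checked.

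MiRNAs are short RNAs that pair with target mRNAs mainly through the seed, bases 2 to 8 from the 5′ end, and lower their translation and stability. Mir183, Mir96 and Mir182 lie in a row on the same strand and are processed from a shared primary transcript. They are best known from sensory organs, where they are needed for hair cells of the inner ear and photoreceptors of the retina, and are also expressed in many epithelia. Their 5p arms are known to target Foxo1, a transcription factor that in fat cells restrains differentiation. MiR-203 is known from the epidermis, where it limits the proliferation of keratinocytes by lowering p63.

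The mature sequences are shown with the seed in capitals, because the cluster members resemble each other there and miR-203-3p does not. They were taken from RefSeq (GRCm38.p6, the assembly behind mm10), which held all 8 arms.
miR-183-5p: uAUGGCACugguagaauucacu
miR-96-5p: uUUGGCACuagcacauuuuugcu
miR-182-5p: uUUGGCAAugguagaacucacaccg
miR-203-3p: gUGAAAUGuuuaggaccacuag
In the seed, miR-96-5p shared 6 of the 7 bases with miR-183-5p and 6 with miR-182-5p, and miR-183-5p and miR-182-5p shared 5. Over the whole length, counted from base 1, miR-183-5p and miR-182-5p were identical at 18 of 22 positions, miR-183-5p and miR-96-5p at 13 of 22, and miR-96-5p and miR-182-5p at 12 of 23. Of the RefSeq mature miRNAs that have a row in the deposited table, none outside the 8 had the same bases 2 to 7 as any of them.

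The precursors are shown with every arm that exceeded the lowest value of the table in any library in capitals, 5′ to 3′ on the strand of the gene.
Mir183: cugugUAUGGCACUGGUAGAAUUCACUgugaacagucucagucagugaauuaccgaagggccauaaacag
Mir96: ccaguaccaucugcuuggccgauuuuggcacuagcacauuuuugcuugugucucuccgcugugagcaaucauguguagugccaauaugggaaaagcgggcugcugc
Mir182: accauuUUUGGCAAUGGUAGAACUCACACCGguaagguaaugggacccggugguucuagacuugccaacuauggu
Mir203: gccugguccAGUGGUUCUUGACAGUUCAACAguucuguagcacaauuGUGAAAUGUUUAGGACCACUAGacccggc
On GRCm38, Mir183 (chr6:30169668-30169737), Mir96 (chr6:30169446-30169551) and Mir182 (chr6:30165918-30165992) are on the minus strand, with 116 bases between Mir183 and Mir96 and 3453 between Mir96 and Mir182. Mir203 (chr12:112130880-112130955) is on the plus strand. In GENCODE release M21 no other gene overlaps any of the 4 precursors, so that none is intronic or exonic to a host gene there. Among genes annotated as protein-coding or as long intergenic non-coding RNA, the nearest to the cluster was Rncr4, on the opposite strand with 3155 bases between it and Mir183. The nearest to Mir203 was Aspg, with 3320 bases between them on the same strand. Other types of non-coding genes were not searched for the nearest.

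The deposited values are log2 values between 3.32 and 18.67, and the lowest, the log2 of 10, stands for miRNAs with the least or no signal. Read counts are not part of the table, so that the depth of each library is unknown and no limit of detection is given for a miRNA at the lowest value. Above the lowest value were 255 to 273 miRNAs in the BAT libraries, 240 to 285 in the SAT libraries and 323 to 349 in the VAT libraries. Tests covered the 343 miRNAs that exceeded the lowest value in 3 or more libraries. Lists of miRNAs known from other tissues showed several libraries that stood apart. SAT 14 and to a lesser degree VAT 20 were high in epithelial miRNAs. BAT 15, BAT 20 and VAT 20 had high sums of the skeletal muscle list, mostly from miR-133a-3p. SAT 20 had a high sum of the leukocyte list, mostly from miR-150-5p. Values are given beside the results they touch. In bulk tissue, more or fewer cells of a type and more or less RNA per cell cannot be told apart.

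MiR-182-5p was the most abundant of the 8 in 8 of the 9 libraries. Its log2 level was 12.89, 11.70 and 10.79 in BAT 12, 15 and 20. In SAT it was 11.38, 7.75 and 7.86 in libraries 14, 19 and 20. In VAT it was 10.08, 10.43 and 11.10 in libraries 14, 17 and 20. The mean was 11.79 ± 1.06 in BAT, 10.54 ± 0.52 in VAT and 9.0 ± 2.06 in SAT (SD, n = 3 each). In this order no neighbours differed in the tests with all libraries, and the calls gained when a library was left out are given with each comparison. The depots overlapped, since SAT 14 lay among the BAT libraries while the other SAT libraries lay below every BAT and VAT library. Among all miRNAs of a library, miR-182-5p ranked between 40 and 76 in BAT, between 70 and 90 in VAT, and at 64, 156.5 and 152.5 in SAT 14, 19 and 20.

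MiR-183-5p, from the other end of the cluster, was lower. Its log2 level was 7.83, 6.91 and 5.76 in BAT 12, 15 and 20, a mean of 6.84 ± 1.04 (SD, n = 3). In VAT 14, 17 and 20 it was 7.70, 7.38 and 8.18, a mean of 7.75 ± 0.40 (SD, n = 3). SAT 19 and SAT 20 were at the lowest value, and SAT 14 was at 9.95, the highest of all 9 libraries. The SAT mean of 5.53 ± 3.83 (SD, n = 3) therefore describes none of its libraries. By rank within a library, miR-183-5p stood at 92.5 in SAT 14 and between 141 and 223.5 in the BAT and VAT libraries.

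The depot means of miR-203-3p lay closest together. The log2 level was 8.73, 8.79 and 7.62 in BAT 12, 15 and 20 (mean 8.38 ± 0.66, SD, n = 3) and 8.31, 8.42 and 8.84 in VAT 14, 17 and 20 (mean 8.52 ± 0.28, SD, n = 3). In SAT it was 11.05 in library 14 and 8.09 and 7.57 in libraries 19 and 20 (mean 8.90 ± 1.88, SD, n = 3). By means the order was SAT, VAT and BAT, but by medians SAT was lowest, at 8.09, against 8.42 in VAT and 8.73 in BAT. MiR-203-5p, the other arm, was at 4.55 in SAT 14 and at the lowest value elsewhere, so that SAT 14 was the library with the highest level for both arms.

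MiR-96-5p, whose precursor lies between those of the other cluster members, was listed at the lowest value in all 9 libraries, also in SAT 14 and BAT 12. The 3p arms of the 3 cluster precursors were likewise at the lowest value throughout. The 5p arm was thus the arm above the lowest value for Mir183 and Mir182, and mainly the 3p arm for Mir203.

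**Figure D1:**
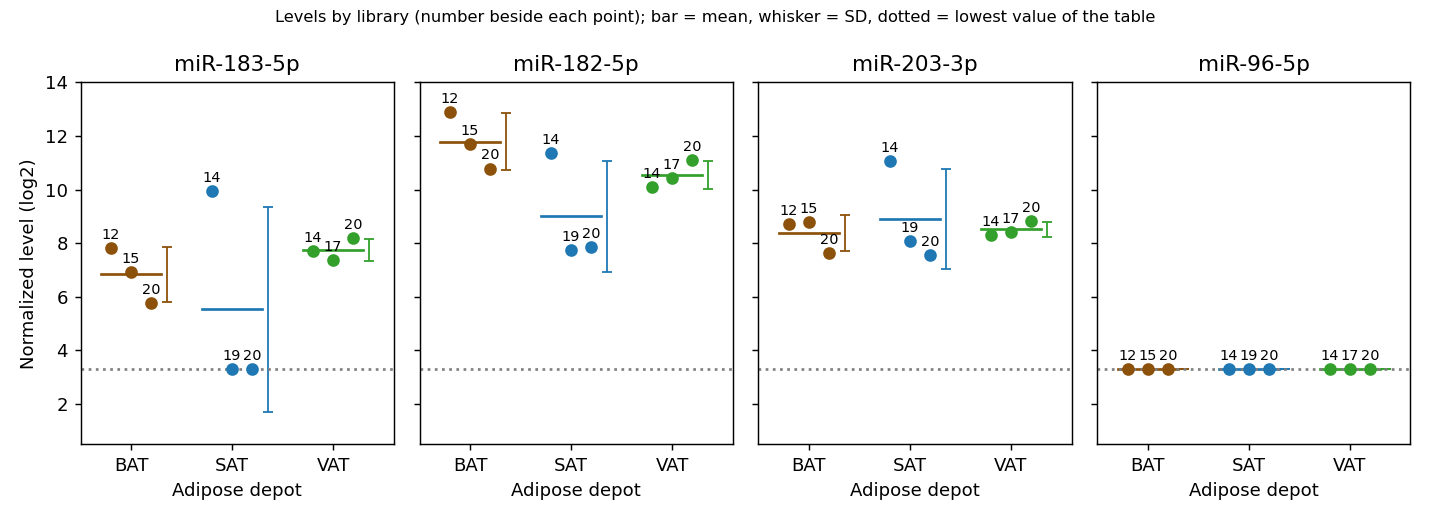
Normalized level (log2) of miR-183-5p, miR-182-5p, miR-203-3p and miR-96-5p in each library of BAT, SAT and VAT, with the library number beside each point, a bar for the mean, a whisker for the SD and a dotted line at the lowest value of the table. SAT 14 lies above the other SAT libraries for the first 3 miRNAs, and miR-96-5p is at the lowest value, 3.32, in all 9.

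The spread between the SAT libraries was wide for all 3 tested members. The highest and lowest SAT libraries differed by 6.63 for miR-183-5p, 3.63 for miR-182-5p and 3.48 for miR-203-3p on the log2 scale, where the median over the 343 tested miRNAs was 0.67. Ordered by this range, miR-183-5p was number 2 of 343, miR-182-5p number 8 and miR-203-3p number 11. The same ranges in VAT were 0.80, 1.02 and 0.53, against a median of 0.52. In BAT they were 2.07, 2.11 and 1.17, against a median of 0.90. SAT was thus the depot in which the libraries parted, and in SAT 14 all 3 members were more than 2 above both other SAT libraries (a margin picked with the values in view). The same was true of 15 of all 343 tested miRNAs (4.37%) in SAT 14, of 8 in SAT 19 and of 7 in SAT 20, none of which was a member in SAT 19 or SAT 20.

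**Figure D2:**
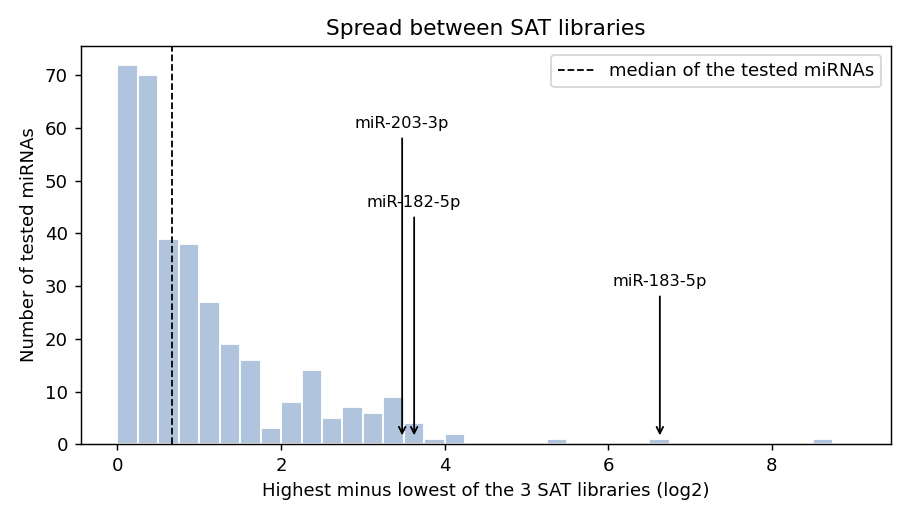
Number of tested miRNAs by the difference between the highest and the lowest of the 3 SAT libraries (log2), with a dashed line at the median of 0.67. MiR-203-3p at 3.48, miR-182-5p at 3.63 and miR-183-5p at 6.63 lie in the upper tail.

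The epithelial list was high in the same library. It held miR-200a-3p, miR-200b-3p, miR-200c-3p, miR-141-3p and miR-429-3p, the family that keeps Zeb1 and Zeb2 low in epithelial cells, and miR-205-5p, which is abundant in skin and other stratified or glandular epithelia. In SAT 14 all 6 were above the lowest value, with miR-205-5p at 14.31, miR-200b-3p at 8.65 and miR-429-3p at 7.04. Summed on the linear scale above the lowest value, the list came to 20867 in SAT 14 and to 38.4 and 79.4 in SAT 19 and SAT 20, where miR-205-5p was the only one above it. In VAT the sum was 6.83, 27.9 and 1188 in libraries 14, 17 and 20. VAT 20 had 5 of the 6 above the lowest value, and was also the highest VAT library for miR-183-5p, miR-182-5p and miR-203-3p. The part of such RNA in the levels of the members in SAT 14 and VAT 20 was not tested.

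In BAT the 6 epithelial miRNAs were at the lowest value in every library, while miR-182-5p stood between 10.79 and 12.89 and miR-203-3p between 7.62 and 8.79. In VAT 14 and VAT 17, with sums of 6.83 and 27.9, miR-183-5p was at 7.70 and 7.38. In SAT 19 and SAT 20, with sums of 38.4 and 79.4, it was at the lowest value. Only 2 miRNAs of the list passed the filter, miR-200b-3p and miR-205-5p, both of them through SAT and VAT libraries, and neither had an adjusted or an unadjusted p under 0.05 in limma's test in any comparison.

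**Figure D3:**
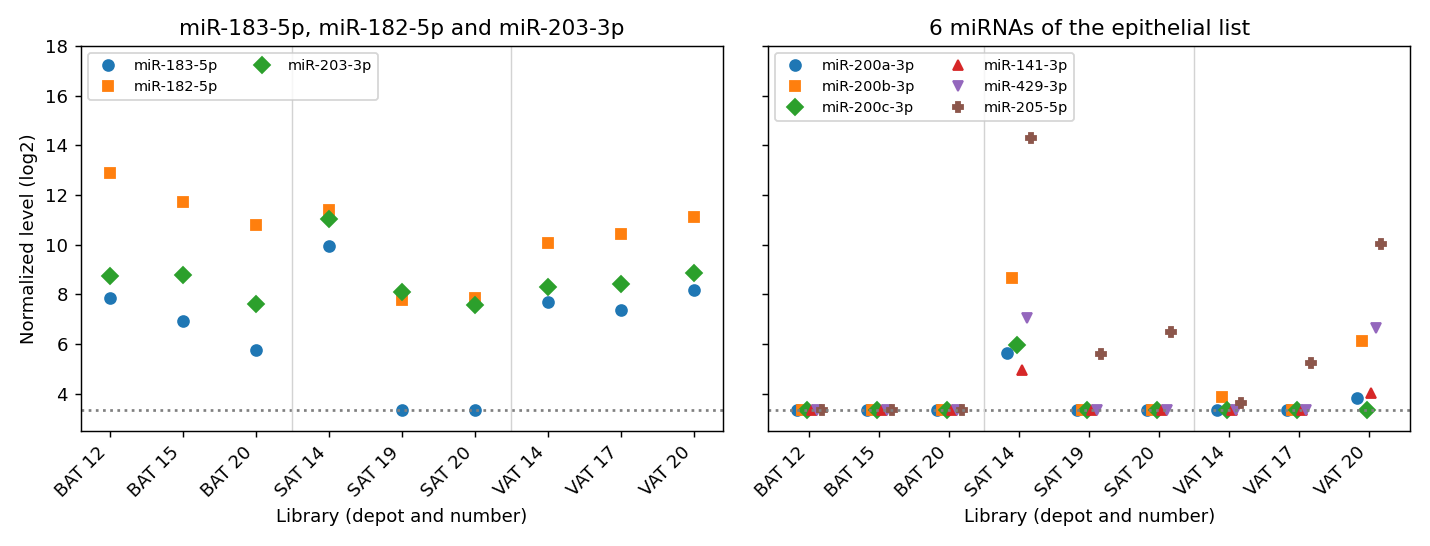
Normalized level (log2) in each of the 9 libraries of miR-183-5p, miR-182-5p and miR-203-3p (left) and of the 6 miRNAs of the epithelial list (right), with a dotted line at the lowest value of the table. All 6 epithelial miRNAs are above it in SAT 14 and none in BAT, where miR-182-5p lies between 10.79 and 12.89.

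The BAT libraries differed in the skeletal muscle list (miR-1a-3p, miR-133a-3p, miR-133b-3p, miR-206-3p, miR-499-5p and miR-208b-3p). The summed level of that list was 1090 in BAT 12, 151562 in BAT 15 and 420524 in BAT 20, in which miR-133a-3p accounted for most, and 912 to 151385 across SAT and VAT, highest in VAT 20. MiR-182-5p and miR-183-5p were highest in BAT 12, the BAT library with the lowest muscle sum, and lowest in BAT 20, that with the highest. In VAT they were highest in VAT 20, the VAT library with the highest muscle sum, and miR-203-3p was highest in BAT 15 and VAT 20. Of the list, 3 miRNAs were tested, and none had an adjusted or an unadjusted p under 0.05 in limma's test in any comparison. MiR-499-5p and miR-208b-3p were at the lowest value everywhere, and miR-1a-3p everywhere but in BAT 20 (7.38) and VAT 20 (3.83). MiR-206-3p was at 8.17 and 8.23 in BAT 15 and BAT 20, but at 3.63 in VAT 20. The part of muscle RNA in these values was not tested.

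The question of the pairwise comparisons was whether the depots of HFD mice differ in miRNA levels. In VAT/BAT, none of the 3 tested members reached an adjusted p under 0.05 by limma's moderated fit (two-sided, Benjamini-Hochberg over 343 miRNAs), none passed an unadjusted p of 0.05, and for none were the VAT and BAT libraries apart without overlap. Over all tested miRNAs, 66.2% passed and 72% did not overlap. MiR-182-5p differed by -1.26 on the log2 scale (95% confidence interval -2.66 to 0.15, adjusted p = 0.0992), a mean in VAT that was 0.419 times that in BAT. MiR-183-5p differed by 0.92 in the opposite direction (-0.42 to 2.25, adjusted p = 0.180). For miR-203-3p the difference was 0.14 (-0.79 to 1.07, adjusted p = 0.756) and the libraries of both depots lay among each other.

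The VAT/BAT calls of the cluster members changed with the BAT library left out. Without BAT 12, miR-183-5p was higher in VAT by 1.41 (adjusted p = 0.0473 in limma's test, range over 16 settings 0.0473 to 0.912), and 55.4% of all tested miRNAs were called, while miR-182-5p moved to -0.71 (adjusted p = 0.226). Without BAT 20, the miR-182-5p difference was -1.76 (adjusted p = 0.0241, range over 17 settings 0.0241 to 0.625), and 68.8% of all were called, while miR-183-5p moved to 0.38 (adjusted p = 0.421).

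In SAT/BAT, again none of the 3 passed the adjusted or the unadjusted threshold and none was without overlap, where 40.5% of all tested miRNAs were called and 52.5% did not overlap. The differences were -2.79 for miR-182-5p (95% confidence interval -5.99 to 0.41, adjusted p = 0.136 in limma's test), -1.30 for miR-183-5p (-6.77 to 4.16, adjusted p = 0.652) and 0.52 for miR-203-3p (-2.22 to 3.27, adjusted p = 0.728). All 3 intervals covered both signs. In a fit of all 9 libraries, which share their estimate of the spread, miR-182-5p passed (adjusted p = 0.0409, range over 17 settings 0.0283 to 0.680). The difference stayed at -2.79 and the standard error fell from 1.23 to 0.98. That fit takes the same spread for all depots, where the SD of miR-182-5p was 2.06 in SAT, 1.06 in BAT and 0.52 in VAT. Each pairwise fit likewise takes the same spread for both of its depots.

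The SAT/BAT calls turned on SAT 14. Without it, 2 of the 3 members were called by limma (adjusted p under 0.05), where 34.4% of all tested miRNAs did. MiR-182-5p was then lower in SAT by 3.98 on the log2 scale, or 15.8-fold (95% confidence interval of the difference -6.06 to -1.91, adjusted p = 0.0283). MiR-183-5p was at the lowest value in both remaining SAT libraries, so its estimate of 11.4-fold below the BAT mean is a lower bound set by that value. The 95% confidence interval of the difference was -5.55 to -1.48 (adjusted p = 0.0344 in limma's test, range over 16 settings 0.0344 to 1). MiR-203-3p turned to -0.55 (-1.94 to 0.85, adjusted p = 0.430), with the 2 remaining SAT libraries inside or just under the range of BAT. Thus both detected members of the cluster were lower in SAT 19 and SAT 20 than in any BAT library, while SAT 14 was above every BAT library for miR-183-5p.

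In VAT/SAT, 16% of all tested miRNAs were called and 39.4% did not overlap, and none of the 3 members passed either threshold or was without overlap. MiR-183-5p differed by 2.22 (95% confidence interval -2.93 to 7.37, adjusted p = 0.501 in limma's test) and miR-182-5p by 1.54 (-1.31 to 4.39, adjusted p = 0.389), both with the higher mean in VAT. MiR-203-3p differed by -0.38 (-2.92 to 2.16, adjusted p = 0.835). Without SAT 14, 2 of the 3 passed, where 10.8% of all did. The estimate for miR-183-5p was at least 21.6-fold higher in VAT (difference at least 4.43, 95% confidence interval 3.66 to 5.20, adjusted p = 0.0118, range over 17 settings 0.0118 to 1). MiR-182-5p was 6.62-fold higher (difference 2.73, 1.75 to 3.70, adjusted p = 0.0293, range over 18 settings 0.0293 to 1). The miR-203-3p difference was 0.69 (-0.044 to 1.43, adjusted p = 0.156). With VAT 20 left out as well, both libraries with high epithelial miRNAs being gone, miR-183-5p was higher in VAT by at least 4.22 and miR-182-5p by 2.45 on the log2 scale (adjusted p = 0.0243 and 0.0452), where 3.21% of all tested miRNAs were called. Each of these fits has only 2 SAT libraries, and for miR-183-5p both are at the lowest value, so that their spread of 0 is set by that value.

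**Figure D4:**
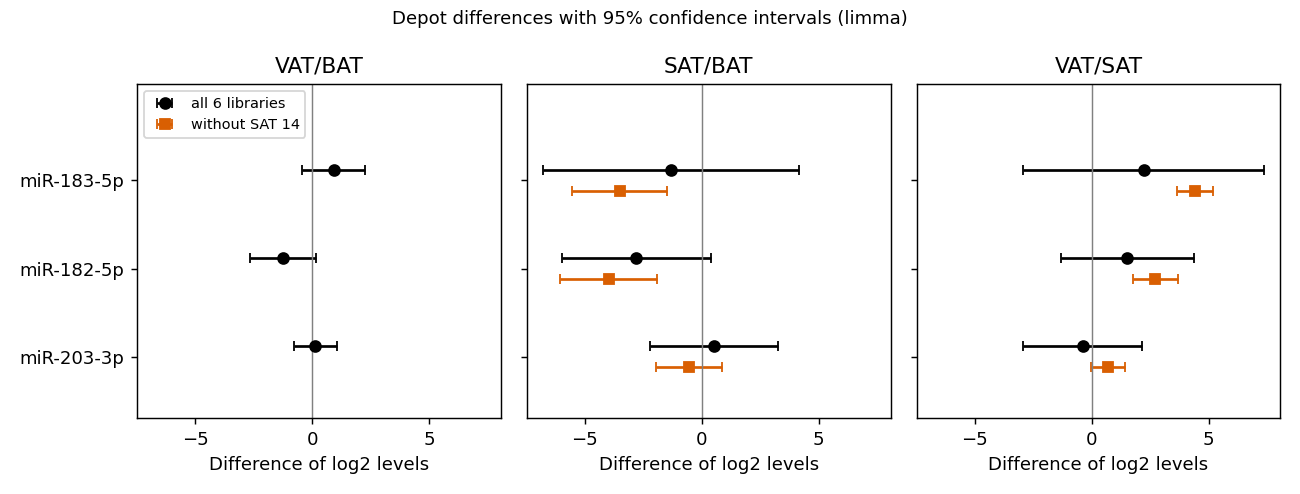
Difference of log2 levels between depots for miR-183-5p, miR-182-5p and miR-203-3p in VAT/BAT, SAT/BAT and VAT/SAT, with 95% confidence intervals from limma, for all 6 libraries (black) and without SAT 14 (orange). All black intervals cross 0, and without SAT 14 those of miR-183-5p and miR-182-5p lie below 0 in SAT/BAT and above 0 in VAT/SAT.

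Because miR-183-5p and miR-182-5p come from neighbouring precursors, their levels were also compared within each library. This cancels a factor common to all miRNAs of a library, but not an added offset or values set by rank. MiR-182-5p exceeded miR-183-5p by 5.06, 4.78 and 5.02 on the log2 scale in BAT 12, 15 and 20. In VAT 14, 17 and 20 the excess was 2.38, 3.05 and 2.91, and in SAT 14 it was 1.43. In SAT 19 and SAT 20 it was at least 4.43 and 4.54, since miR-183-5p was at the lowest value there. The excess was therefore steady within BAT, although both levels differed by about 2 between BAT 12 and BAT 20, and smaller in every VAT library. VAT and BAT differed in it by -2.17 (mean 2.78 ± 0.35 over the 3 VAT and 4.96 ± 0.15 over the 3 BAT libraries, SD; exact permutation test, two-sided p = 0.1, the smallest that 3 against 3 allow, and 0.15 after adjustment over the 9 comparisons made). VAT and SAT overlapped in it (exact permutation p = 0.5, two-sided), and no statement is made on SAT against BAT, where 2 of the SAT values are lower bounds. Per base of mature sequence, miR-182-5p being 25 and miR-183-5p 22 bases long, each excess would be 0.18 smaller, alike in all depots. How often other pairs of miRNAs part VAT from BAT in this way was not counted.

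The same was done for miR-182-5p and miR-203-3p, which come from different chromosomes. The excess of miR-182-5p over miR-203-3p was 4.17, 2.91 and 3.16 in BAT 12, 15 and 20, and 1.77, 2.02 and 2.25 in VAT 14, 17 and 20. In SAT 14, 19 and 20 it was 0.33, -0.34 and 0.30. SAT 14 lay with the other SAT libraries here, although both miRNAs were about 3 or more higher in it. The ranges of the 3 depots did not overlap, and the differences were -1.40 in VAT/BAT, -3.32 in SAT/BAT and 1.92 in VAT/SAT (exact permutation p = 0.1 each, two-sided, the smallest possible, and 0.15 adjusted). How often other pairs of miRNAs part the depots in this way was not counted. Of single tested miRNAs, 72% did not overlap in VAT/BAT, 52.5% in SAT/BAT and 39.4% in VAT/SAT. In the remaining pair, miR-203-3p exceeded miR-183-5p by 1.54 ± 0.56 in BAT and 0.77 ± 0.23 in VAT (SD over 3 libraries each), and VAT and BAT overlapped (difference -0.77, exact permutation p = 0.2, two-sided, 0.257 adjusted). Its SAT mean of 3.37 holds the lower bounds of SAT 19 and SAT 20. With these, SAT and BAT overlapped (difference 1.83, exact permutation p = 0.3, 0.338 adjusted), and SAT was above VAT without overlap (VAT/SAT -2.60, exact permutation p = 0.1, 0.15 adjusted).

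**Figure D5:**
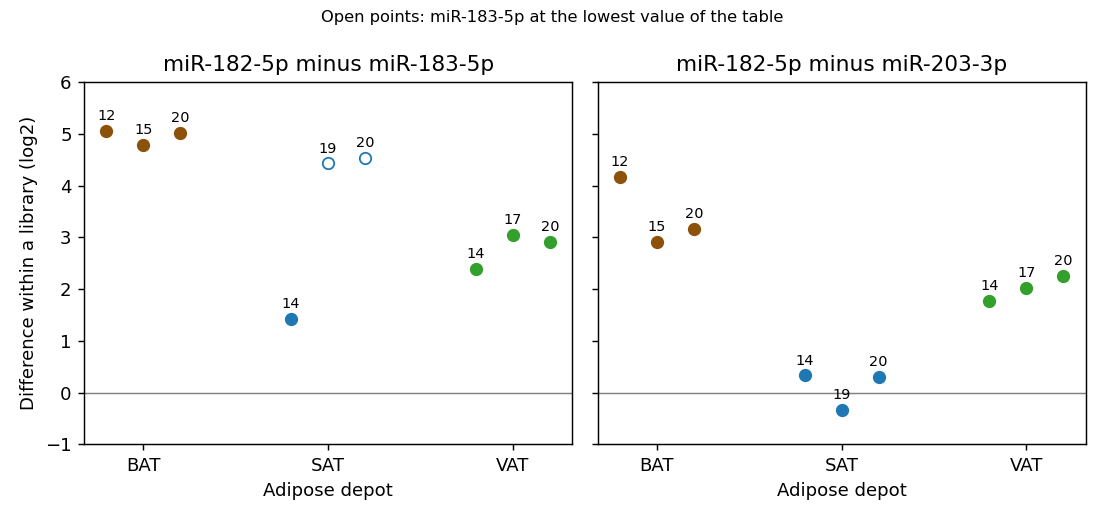
Difference within each library (log2) between miR-182-5p and miR-183-5p (left) and between miR-182-5p and miR-203-3p (right), by depot, with library numbers beside the points. Open points mark SAT 19 and SAT 20, where miR-183-5p is at the lowest value and the difference is a lower bound, and on the right BAT lies highest, VAT between and SAT around 0.

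The profiles most like those of the members were found by the root mean square difference over the 9 libraries after the mean of each miRNA was subtracted, as a description. For miR-183-5p they were miR-212-3p (1.20), miR-182-5p (1.24) and miR-203-3p (1.47), so that 2 of the 3 nearest of 342 were members themselves. All of these, like miR-183-5p, stood more than 2 above both other SAT libraries in SAT 14. How much of the likeness rests on that library was not tested. MiR-212-3p, which shares its locus with miR-132, was at 6.80 in SAT 14 and at the lowest value in SAT 19 and SAT 20, as miR-183-5p was. For miR-203-3p the nearest was miR-375-3p (0.44), a miRNA of pancreatic islets and secretory epithelia, which was at 6.72 in SAT 14, at 3.92 and 4.02 in VAT 17 and VAT 20 and at the lowest value in the other libraries. MiR-212-5p (0.56) and miR-299a-3p and miR-299b-3p (0.70 each, with the same values) came next. For miR-182-5p they were miR-676-5p (0.83), miR-673-5p (0.99) and miR-1981-3p (1.05). MiR-676-5p was at 7.78 to 8.58 in BAT and at 5.60 to 6.64 in SAT, while miR-1981-3p overlapped between the 2 depots.

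Of the neuron and sensory list, chosen because the cluster is known from sensory cells, 1 of 6 passed the filter. MiR-204-5p, a miRNA of the retinal pigment epithelium among other tissues, was between 9.71 and 10.61 in all 9 libraries and was called in no comparison, with a VAT/BAT difference of -0.0054. MiR-124-3p, miR-9-3p and miR-7a-5p were at the lowest value everywhere. MiR-9-5p was above it only in VAT 14 (4.98) and VAT 20 (4.13), and miR-211-5p only in SAT 20 (6.33) and VAT 17 (4.08). Of the leukocyte list, 4 of 5 were tested, miR-142-3p and miR-223-3p passing the filter through SAT and VAT alone, since both were at the lowest value in BAT. In limma's test (adjusted p under 0.05), 3 were higher and 1 lower in VAT/BAT, 1 was higher in SAT/BAT and 1 in VAT/SAT, where 66.2%, 40.5% and 16% of all tested miRNAs were called in either direction. The summed level of the list was highest in SAT 20, at 112045 against 7604 to 27559 in the other libraries, while miR-182-5p was at 7.86 in SAT 20 and 7.75 in SAT 19.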

How the data were processed

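Small RNA was sequenced by the authors from 3 libraries each of BAT, SAT and VAT of HFD mice. Reads were mapped to miRBase precursors, reads on mature miRNAs were kept and shared among their places in proportion, and counts were normalized to total usable reads with 40 counts added. The aligner and its version are not given in the sources used here, and the labels name build mm10. The deposited values are on a log2 scale, as the authors left them. On the linear scale they bottom out at 10 although 40 counts are said to have been added, and libraries hold the same values at equal ranks, which compresses low levels and can shift others.

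The values were used as deposited. Pairwise comparisons were fitted with limma 3.58.1 in R 4.3.3 on the 343 miRNAs above the lowest value in 3 or more libraries, with Benjamini-Hochberg adjustment, and the fit was tested on simulated data. The study used an unmoderated test, run here as an alternative. Exact permutation tests compared 2 members within libraries. The labels and the study call the libraries of a depot separate samples, and p-values measure the spread between them. Figures and tables used Python 3.11.15. Named were all 8 members, their 3 nearest profiles and 4 tissue lists. Members and lists were chosen with earlier results of these data known. Alternatives covered offset, filter, scaling, the libraries fitted, moderation, the study's thresholds, the replicate block and each library left out. The study's thresholds (unadjusted p under 0.05 and fold over 1.25) were applied to limma's moderated p, where the study used Student's t-test. The setting without SAT 14 and VAT 20 and the comparison within libraries were added after seeing the data.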

Additional observations from a re-analysis of the deposited data

How the results depend on the processing

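None of the 3 tested members was called in any comparison in the fits as reported, nor with another offset, no filter, a common median, values relative to miR-191-5p (which shifts SAT by 0.17 on the log2 scale), no moderation, or the study's thresholds. The exceptions in SAT/BAT were 1 called in the fit of all 9 libraries, 1 with the replicate block in that fit, and 2 without SAT 14 and VAT 20. That last setting drops only SAT 14 in SAT/BAT and only VAT 20 in VAT/BAT. It repeats there a fit with 1 library left out, and counts again among the settings. In VAT/SAT, 2 were called without SAT 14 and VAT 20. With each library left out in turn, 0 to 1 were called in VAT/BAT, 0 to 2 in SAT/BAT and 0 to 2 in VAT/SAT. The cause was not tested. MiR-203-3p changed sign: leaving out each library gave -0.24 to 0.35 in VAT/BAT, -0.55 to 1.19 in SAT/BAT and -1.05 to 0.69 in VAT/SAT, and without SAT 14 and VAT 20 it was -0.017, -0.55 and 0.53. MiR-183-5p was not among the miRNAs with the higher mean, so that filter gave no value for it. With the lowest value subtracted and 1 added, its difference was -3.38 instead of -1.30 in SAT/BAT and 4.38 instead of 2.22 in VAT/SAT, and with a further 40 added -0.22 and 0.90.

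SAT and VAT share the numbers 14 and 20, and BAT also has a library 20. With the number as a replicate block over the 6 SAT and VAT libraries, no member was called in VAT/SAT. MiR-183-5p differed by 2.21 and miR-182-5p by 1.53. Deviations of same-numbered libraries correlated at -0.14 to 0.27 (4 pairs), and those of differently numbered ones at -0.48 to 0.36 (23 pairs). These ranges overlap and cannot show whether a shared number marks a shared mouse. The numbers were not taken to pair the libraries, since their meaning is not stated. Calls over all tested miRNAs in VAT/SAT moved from 55 (also with that block) to 4 without a filter and 2 relative to miR-191-5p. They were 13 without moderation and 30 in the fit of all libraries, with or without the block. At the study's thresholds, applied to the moderated p, they were 122. Without SAT 14 and VAT 20 they were 11, and with each library left out 0 to 49. Without a filter they moved from 227 to 128 in VAT/BAT (120 among the miRNAs with the higher mean) and from 139 to 74 in SAT/BAT. The VAT/BAT difference in the excess of miR-182-5p over miR-183-5p was -2.31 to -1.92 over its 8 alternatives. With unknown depth, a value at the lowest level cannot be told from a low one.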
